A study of Saccharomyces cerevisiae with 30 samples.

Results

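The SNZ and SNO genes of Saccharomyces cerevisiae encode the enzyme that makes the active form of vitamin B6, and the 6 of them are SNZ1, SNO1, SNZ2, SNO2, SNZ3 and SNO3. They were chosen by gene name in the authors' time point 2 comparison table and joined by gene identifier to the count table, where they are 6 of 7127 features. The choice was made with fold changes of these data known, so the p-values below are no independent support for picking this family. The strain difference at time point 2, the comparison from which the names came, is given as a description without a test. All 6 genes passed the filter on low counts.

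RNA was sequenced from chemostat cultures on a low glucose feed that pass through the yeast metabolic cycle, a repeated swing in oxygen use with which most transcripts rise and fall. The mutant strain yaf9W89A (W89A below) carries a substitution in the YEATS-domain pocket of Yaf9, a subunit that the SWR1 and NuA4 chromatin complexes share, and the wild-type strain (WT) does not. Both strains have the CEN.PK122-alpha background and the same low glucose treatment. Each was sampled at 5 time points in 3 consecutive cycles, which gives 15 W89A and 15 WT libraries in 10 groups of 3, with totals between 16540627 and 20260295 counts. No separate cultures are stated, so p-values measure the spread between cycles, and strain and culture cannot be told apart. Whether a time point number marks the same phase of the cycle in both strains was not tested. A strain difference in level at a time point and a shift in timing can therefore not be told apart. A count per gene does not show a substitution, so the genotype could not be checked. In the first W89A cycle, the libraries titled W89A20 and W89A19 are used as time points 4 and 5, as in the authors' comparison tables; their titles give the opposite order.

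Pyridoxal phosphate, the active vitamin B6, is the cofactor of aminotransferases, amino acid decarboxylases and many other enzymes of nitrogen metabolism. Snz proteins are the synthase subunit, which builds the ring from sugar phosphates and ammonia, and Sno proteins are the glutaminase subunit that releases this ammonia from glutamine. Each SNO gene lies head to head with its SNZ gene, and the pair shares the stretch between the start codons. SNZ1 and SNO1 are known to be induced on starvation for amino acids and in stationary phase. SNZ2, SNO2, SNZ3 and SNO3 lie near chromosome ends beside THI12 and THI5, and are known to respond to thiamine. Thi5 and its copies make the pyrimidine part of thiamine and consume pyridoxal phosphate in doing so.

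The stretch between SNO1 and SNZ1 is shown because it is where that pair differs most plainly from the other pairs. On the R64 reference, which is of strain S288C and not of CEN.PK, SNZ1 (YMR096W) occupies bases 458408 to 459301 of chromosome XIII on the plus strand. SNO1 (YMR095C) occupies bases 457285 to 457959 on the minus strand, and 448 bases separate the start codons. The part printed, 172 bases of the plus strand from RefSeq R64, chrXIII:458083-458254, has each TGACTC in capitals. TGACTC is the core of the site bound by Gcn4, the activator of amino acid biosynthesis genes.
between SNO1 and SNZ1: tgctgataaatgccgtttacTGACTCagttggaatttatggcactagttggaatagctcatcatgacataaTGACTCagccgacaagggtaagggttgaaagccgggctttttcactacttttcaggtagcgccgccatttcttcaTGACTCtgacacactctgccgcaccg

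A search of both strands found 3 copies, which do not overlap, at bases 458103 to 458108, 458154 to 458159 and 458229 to 458234. Their last bases lie 299, 248 and 173 bases before the SNZ1 start. Of 6000 windows of 448 bases before R64 protein-coding genes, 11.3% held at least 1 TGACTC on either strand, and 9 windows, or 0.15%, held at least 3. The 390 bases between SNO2 and SNZ2 and the 393 bases between SNO3 and SNZ3 held 0 copies. A match is a description of these letters and shows no binding.

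The other pairs are near-copies of each other, which decides how far their counts can be read. SNZ2 (YNL333W, chromosome XIV, 13267 to 14163, plus strand) and SNZ3 (YFL059W, chromosome VI, 11363 to 12259, plus strand) differ at 6 of 897 coding bases. Counted from the first base of the start codon, with the SNZ2 base first, these are C303T, T702C, T750C, T777C, G789A and A796G. Shown next are coding bases 691 to 810 of the plus strand from RefSeq R64, chrXIV:13957-14076 and chrVI:12053-12172, with the 5 differences of that stretch in capitals.
SNZ2 coding: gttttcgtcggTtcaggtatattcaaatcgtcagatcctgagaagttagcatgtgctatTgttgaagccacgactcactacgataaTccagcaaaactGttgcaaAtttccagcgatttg
SNZ3 coding: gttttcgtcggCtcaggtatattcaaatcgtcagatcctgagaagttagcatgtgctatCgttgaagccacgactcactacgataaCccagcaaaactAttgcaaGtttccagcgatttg

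Of all 50-base windows of the SNZ2 coding sequence, 77.1% had the same letters at the same place in SNZ3. SNO2 (YNL334C, chromosome XIV, 12208 to 12876, minus strand) and SNO3 (YFL060C, chromosome VI, 10301 to 10969, minus strand) differ at 2 of 669 bases, A280T and A314C, and 86.5% of their 50-base windows are alike. The stretches between the start codons of these pairs are 99.2% identical. SNZ1 shares 71.8% of aligned bases with SNZ2 and 72.5% with SNZ3, and SNO1 shares 65.1% with SNO2. SNZ1 and SNO1 have 0 windows of 50 bases in common with the copies. For windows of 100 and 150 bases the share alike was 63.2% and 53.7% for SNZ2 and SNZ3, and 76.5% and 64.6% for SNO2 and SNO3. Reads of SNZ2 and SNZ3, or of SNO2 and SNO3, can therefore in large part not be told apart at these lengths. The read length is not given, and the split between the copies is uncertain. Reads of SNZ1 and SNO1 can be told from all of them. SNZ2 took 43.2% to 57.6% of the summed SNZ2 and SNZ3 counts over the 30 libraries (median 51.7%). SNO2 took 42.1% to 71.3% of the summed SNO2 and SNO3 counts (median 56.3%).

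SNZ1, the main synthase gene by level, reached its highest levels in W89A. Levels are CPM, the count relative to the normalized library size, which makes libraries of unequal depth comparable. It stood at 914.4, 914.7 and 854.2 CPM at time point 3 in W89A cycles 1 to 3, against 228.4, 257.9 and 287.4 CPM in WT. The lowest W89A library at this time point thus lay above every WT library of time points 1, 3, 4 and 5, the highest of which stood at 331.4 CPM. The difference at time point 3 was 1.79 ± 0.28 (log2 fold change ± SE, W89A over WT; adjusted p = 1.131e-05, edgeR quasi-likelihood test). A library pools a whole culture sample, so more cells with the transcript and more transcript per cell cannot be told apart.

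Earlier in the cycle SNZ1 was also higher in W89A without overlap. It stood at 428.9, 428.7 and 367.8 CPM in W89A at time point 1, against 206.5, 318.8 and 331.4 CPM in WT. This difference of 0.52 ± 0.27 did not pass (adjusted p = 0.2274, edgeR). At time point 2 the levels were 584.1, 547.7 and 432.5 CPM in W89A and 271.4, 358.7 and 336.6 CPM in WT, a log2 fold change of 0.69 ± 0.27 that is not tested here.

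From time point 4 on the SNZ1 levels overlapped. They were 183.8, 187.4 and 521.5 CPM at time point 4 in W89A and 174.5, 258.6 and 241.1 CPM in WT. W89A cycle 3 stands apart from cycles 1 and 2, and it sets the sign: the log2 fold change was 0.41 ± 0.27 (adjusted p = 0.3031, edgeR) with it and -0.275 (adjusted p = 0.264) without that cycle. SNZ1 ended the cycle at 191.1, 195.6 and 272.1 CPM at time point 5 in W89A and 181.3, 239.1 and 230.6 CPM in WT, a log2 fold change of 0.02 ± 0.27 (adjusted p = 0.9767, edgeR).

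SNO1, the glutaminase gene that shares the SNZ1 promoter region, differed more than SNZ1 between the strains. It had 363.7, 358.5 and 267.0 CPM at time point 3 in W89A, against 42.63, 61.8 and 60.61 CPM in WT. The log2 fold change of 2.58 ± 0.31 (adjusted p = 4.056e-07, edgeR) was the highest of the 6 genes at that time point. SNO1 began at 164.1, 111.1 and 123.9 CPM at time point 1 in W89A and 50.56, 83.02 and 78.38 CPM in WT, without overlap. That difference of 0.91 ± 0.29 missed the threshold (adjusted p = 0.05502, edgeR) and passed in DESeq2 (adjusted p = 0.0212). At time point 2, described only, it had 219.3, 191.7 and 129.4 CPM in W89A and 54.98, 83.76 and 82.41 CPM in WT, a log2 fold change of 1.29 ± 0.29.

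Unlike SNZ1, SNO1 was still called higher in W89A at time point 4. It had 76.22, 78.12 and 197.6 CPM in W89A, against 38.67, 50.66 and 49.27 CPM in WT, with no overlap and a log2 fold change of 1.35 ± 0.30 (adjusted p = 0.003126, edgeR). Without W89A cycle 3 the fold change was 0.741 (adjusted p = 0.0124). A fit of the 6 libraries of that time point alone did not call it (adjusted p = 0.0603). SNO1 had come to 54.64, 55.93 and 78.62 CPM at time point 5 in W89A and 50.75, 57.34 and 51.53 CPM in WT, a log2 fold change of 0.24 ± 0.29 (adjusted p = 0.6313, edgeR).

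**Figure D1:**
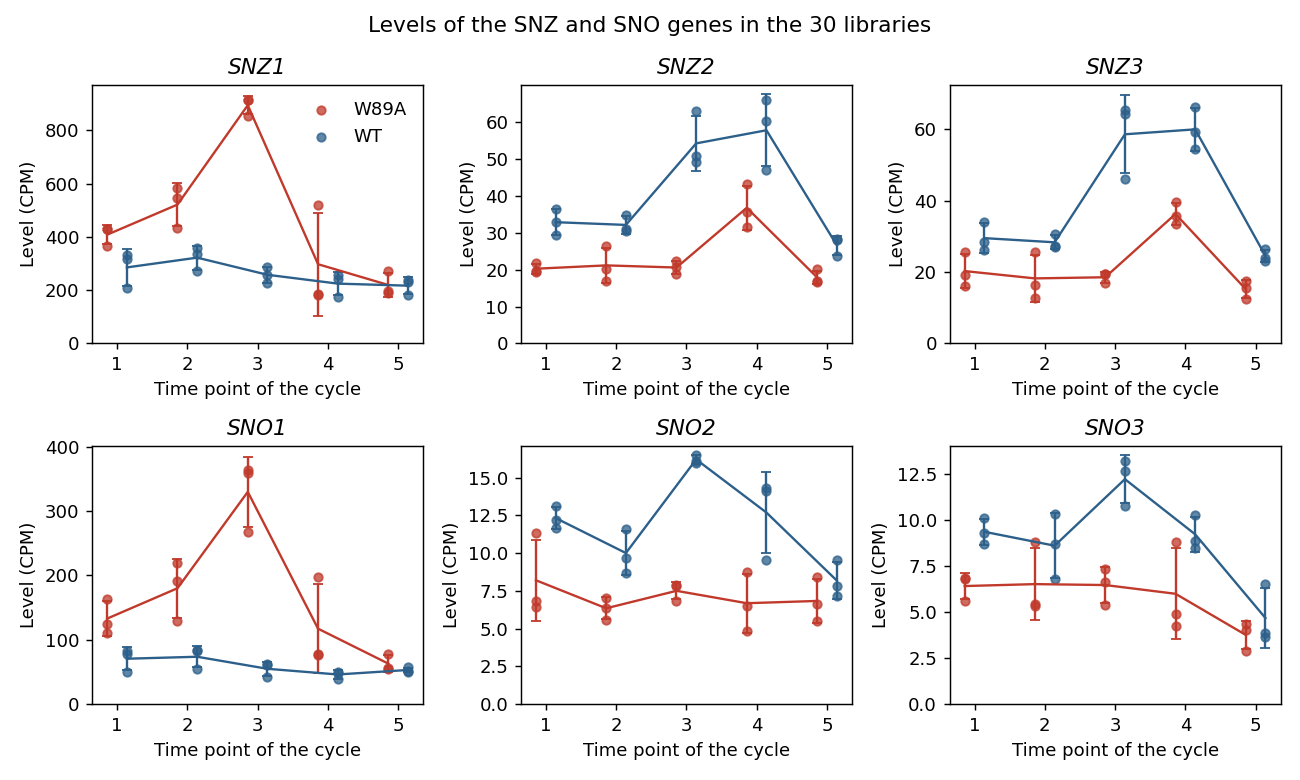
Level in CPM of each gene by time point of the cycle, W89A in red and WT in blue; points are libraries, lines join the means of 3 libraries and bars are SD. SNZ1 and SNO1 are highest in W89A at time point 3 (means of 894.4 and 329.7 CPM, against 257.9 and 55.01 CPM in WT), where SNZ2 and SNZ3 are lower in W89A (20.55 and 18.56 CPM, against 54.14 and 58.62 CPM in WT).

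SNZ2 and SNZ3, the synthase genes near chromosome ends, ran the other way and were lower in W89A. Their libraries did not overlap at time points 1, 3, 4 and 5, where 16.9% to 27.3% of all genes were lower without overlap. SNZ2 stood at 18.78, 22.28 and 20.61 CPM at time point 3 in W89A, against 49.0, 50.61 and 62.8 CPM in WT. SNZ3 stood there at 19.35, 16.83 and 19.5 CPM in W89A, against 64.41, 46.01 and 65.44 CPM in WT. The log2 fold changes were -1.40 ± 0.15 for SNZ2 (adjusted p = 8.921e-08) and -1.66 ± 0.19 for SNZ3 (adjusted p = 1.886e-07), both by edgeR.

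Both genes stood higher at time point 4 than at time point 3 in W89A, yet lower than in WT. SNZ2 had 31.5, 35.45 and 43.17 CPM in W89A and 46.98, 65.87 and 60.21 CPM in WT, a log2 fold change of -0.65 ± 0.15 (adjusted p = 0.003678, edgeR). SNZ3 had 33.5, 35.68 and 39.67 CPM in W89A and 54.5, 66.29 and 59.2 CPM in WT, a log2 fold change of -0.72 ± 0.19 (adjusted p = 0.007687, edgeR).

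At time points 1 and 5 the differences were smaller than at time point 3, and their calls less firm. For time point 1, SNZ2 had 19.58, 19.32 and 21.78 CPM in W89A and 32.74, 29.32 and 36.42 CPM in WT, a log2 fold change of -0.70 ± 0.15 (adjusted p = 0.009491, edgeR). SNZ3 had 16.23, 19.13 and 25.5 CPM in W89A and 28.31, 26.08 and 34.17 CPM in WT, a log2 fold change of -0.54 ± 0.19 that missed the threshold (adjusted p = 0.07748, edgeR). The SNZ2 call at time point 1 was lost without W89A cycle 2 (adjusted p = 0.0958) and without WT cycle 3 (adjusted p = 0.0791).

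SNZ2 had 16.71, 16.95 and 20.02 CPM at time point 5 in W89A and 28.26, 23.66 and 27.97 CPM in WT, a log2 fold change of -0.57 ± 0.16 (adjusted p = 0.02211, edgeR). SNZ3 had 15.63, 12.48 and 17.49 CPM in W89A and 26.34, 24.05 and 23.2 CPM in WT, a log2 fold change of -0.69 ± 0.20 (adjusted p = 0.02745, edgeR). Leaving out W89A cycle 1 or 2, or WT cycle 1 or 3, ended both calls (adjusted p of 0.0572 or more), as did leaving out WT cycle 2 for SNZ3. The fold changes with single cycles left out ran between -0.661 and -0.52 for SNZ2 and between -0.801 and -0.558 for SNZ3. With the first-cycle W89A libraries in title order, the fold changes at time point 5 were -0.222 for SNZ2 (adjusted p = 0.632) and -0.212 for SNZ3 (adjusted p = 0.732).

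At time point 2, described only, SNZ2 had 17, 20.12 and 26.26 CPM in W89A and 30.56, 30.89 and 34.8 CPM in WT. SNZ3 had 12.63, 16.5 and 25.6 CPM in W89A and 27.35, 27.06 and 30.64 CPM in WT. The log2 fold changes there were -0.60 ± 0.15 and -0.63 ± 0.19 in that order of genes.

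SNO2 and SNO3, the glutaminase partners of SNZ2 and SNZ3, were the lowest of the 6 in level and were lower in W89A at time point 3. SNO2 had 7.877, 7.799 and 6.851 CPM in W89A there, against 15.96, 16.13 and 16.53 CPM in WT, a log2 fold change of -1.11 ± 0.22 (adjusted p = 0.0001714, edgeR). SNO3 had 7.363, 5.395 and 6.64 CPM in W89A, against 10.76, 12.67 and 13.21 CPM in WT, a log2 fold change of -0.92 ± 0.26 (adjusted p = 0.004261, edgeR). Neither gene's libraries overlapped at that time point.

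SNO2 had 6.483, 4.86 and 8.725 CPM at time point 4 in W89A and 14.35, 14.15 and 9.58 CPM in WT, a log2 fold change of -0.92 ± 0.22 (adjusted p = 0.005539, edgeR) that the 6 libraries alone did not give (adjusted p = 0.0717). SNO3 had 4.241, 4.92 and 8.815 CPM in W89A and 8.501, 10.28 and 8.87 CPM in WT, a log2 fold change of -0.61 ± 0.26 that did not pass (adjusted p = 0.0936, edgeR). Its W89A cycles 1 and 2 lay below all WT libraries of that time point and cycle 3 among them, and without W89A cycle 3 SNO3 passed, at -1.007 (adjusted p = 0.00763).

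The log2 fold changes at time point 1 were -0.58 ± 0.22 for SNO2 (adjusted p = 0.0953) and -0.54 ± 0.26 for SNO3 (adjusted p = 0.1793), and at time point 5 -0.26 ± 0.23 (adjusted p = 0.4924) and -0.31 ± 0.28 (adjusted p = 0.5053), all by edgeR. At time point 2, described only, they were -0.65 ± 0.23 and -0.40 ± 0.26. Over the 30 libraries SNO2 held 82 to 363 counts and SNO3 48 to 290, the smallest numbers among the 6 genes.

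Summing the copies removes the doubt over how their reads were split, but not over whether reads that match both were counted. That is not given in the sources used here, and if they were dropped the copies' levels are too low. The summed SNZ2 and SNZ3 counts gave log2 fold changes of -0.62 at time point 1 (adjusted p = 0.01829), -1.53 at time point 3 (4.497e-08), -0.69 at time point 4 (0.003324) and -0.63 at time point 5 (0.01564), adjusted p by edgeR. The summed SNO2 and SNO3 counts gave -0.57 (0.05609), -1.02 (5.548e-05), -0.78 (0.004647) and -0.28 (0.37) at the same time points.

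By time point, at time point 3 SNZ1 and SNO1 passed as higher and the other 4 as lower in W89A, where 28.2% of all genes tested passed as higher and 22.9% as lower. SNO1 passed as higher at time point 4 (all genes 10.9%) and SNZ2, SNO2 and SNZ3 as lower (all genes 10.5%). SNZ2 passed as lower at time point 1 (all genes 3.6%), and 4.41% of all genes passed as higher. SNZ2 and SNZ3 passed as lower at time point 5 (all genes 4.44%), and 5.07% of all genes passed as higher. Averaged over time points 1, 3, 4 and 5, SNZ1 (0.68 ± 0.14, adjusted p = 0.0002672) and SNO1 (1.27 ± 0.15, adjusted p = 6.803e-07) passed as higher by edgeR, as did 25.9% of all genes. SNZ2 (-0.83 ± 0.08, adjusted p = 2.084e-08), SNO2 (-0.72 ± 0.11, adjusted p = 1.341e-05), SNZ3 (-0.90 ± 0.10, adjusted p = 1.542e-07) and SNO3 (-0.60 ± 0.13, adjusted p = 0.0006643) passed as lower, as did 21.3% of all genes. A call in either direction is thus common in these data.

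Libraries that do not overlap are also common. SNZ1 and SNO1 were higher in W89A without overlap at time point 1, where 16% of all genes were, and 4 members (SNZ2, SNO2, SNZ3 and SNO3) lower, where 19.1% of all genes were. At time point 2, from which the names came, 17.3% and 15.7% of all genes were higher and lower without overlap. All 6 members stood apart at time point 3, where 32.5% of all genes were higher and 27.3% lower without overlap. SNO1 stood apart as higher at time point 4 (18.1% of all genes) and SNZ2, SNO2 and SNZ3 as lower (16.9%). SNZ2 and SNZ3 stood apart as lower at time point 5 (16.9%), and 19% of all genes were higher without overlap.

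**Figure D2:**
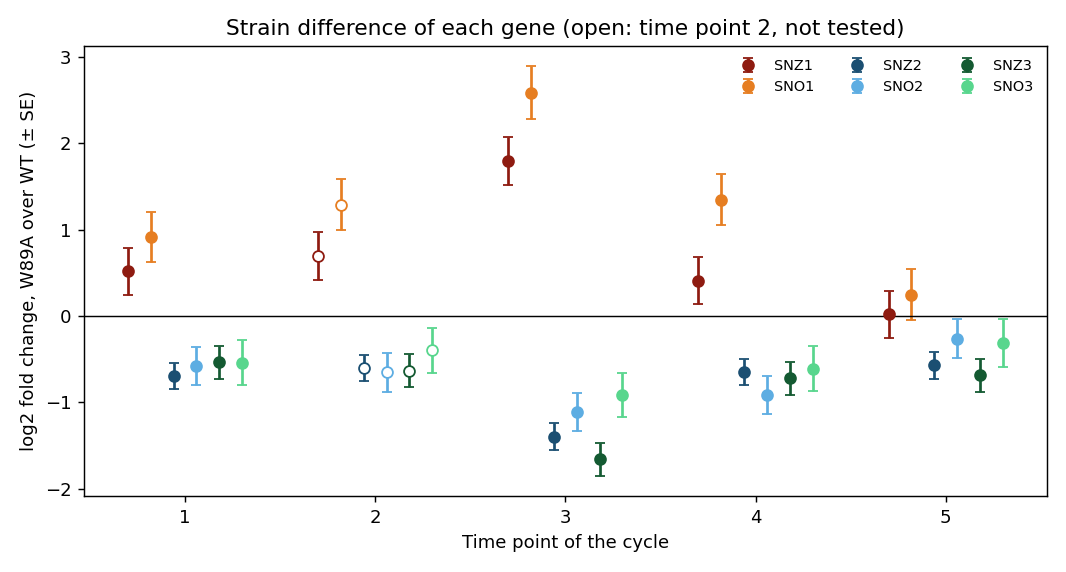
Log2 fold change of W89A over WT with its SE for each gene at each time point, from the fit of all 30 libraries; open symbols mark time point 2, which is not tested. At time point 3 SNZ1 and SNO1 lie above 0 and the other 4 genes below it, furthest apart of all time points (2.58 for SNO1 and -1.66 for SNZ3); at time point 5 SNO1 (0.24) and SNZ3 (-0.69) lie closest.

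The size of the strain difference changed between time points for 4 of the 6 genes. An edgeR test of 3 contrasts over time points 1, 3, 4 and 5 passed for SNZ1 (strain differences spanning 1.78 on the log2 scale, adjusted p = 0.003529), SNO1 (2.34, adjusted p = 0.0007214), SNZ2 (0.82, adjusted p = 0.008395) and SNZ3 (1.12, adjusted p = 0.004719). Of all genes, 41.6% passed. SNO2 (0.85, adjusted p = 0.1177) and SNO3 (0.61, adjusted p = 0.5584) did not. The SNZ2 call was lost with the first-cycle libraries in title order (adjusted p = 0.0524) and the SNZ3 call without WT cycle 1 (adjusted p = 0.055). For all 4 genes the largest difference was at time point 3.

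Within W89A the cycle moved SNZ1 by 2.03 on the log2 scale between its lowest and highest time points (adjusted p = 2.758e-06) and SNO1 by 2.39 (adjusted p = 1.8e-06), by an edgeR test of 4 contrasts that 75.5% of all genes passed. SNZ2 (1.04, adjusted p = 3.257e-06) and SNZ3 (1.26, adjusted p = 9.273e-06) also passed, with their peak at time point 4. SNO2 (0.37, adjusted p = 0.5429) and SNO3 (0.80, adjusted p = 0.05648) did not. In title order the ranges of SNZ2 (0.655, adjusted p = 0.074) and SNZ3 (0.734, adjusted p = 0.152) no longer passed.

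Within WT the copies spanned a wider range than the SNZ1 pair, whose call depended on the fit. SNZ2 (1.11, adjusted p = 1.193e-07), SNO2 (0.98, adjusted p = 0.003007), SNZ3 (1.29, adjusted p = 1.177e-07) and SNO3 (1.39, adjusted p = 0.0009619) passed the same edgeR test, as did 81.5% of all genes. The SNO2 call (adjusted p = 0.0674) and the SNO3 call (adjusted p = 0.0543) were lost without WT cycle 2. SNZ1 spanned 0.57 (adjusted p = 0.2475) and SNO1 0.67 (adjusted p = 0.1579) in WT. Both passed when the WT libraries were fitted alone (adjusted p = 0.0376 and 0.0209) and with the cycle as a block within WT (adjusted p = 0.000461 and 0.000146); their highest WT mean was at time point 2. The WT means of SNZ1 ran between 322.2 CPM at time point 2 and 217.0 CPM at time point 5, and neighbours in their order overlapped.

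The timing of the SNZ2 and SNZ3 rise differed in the group means. In WT both stood high at time points 3 and 4, with SNZ2 means of 54.14 ± 7.543 and 57.69 ± 9.696 CPM (SD, n = 3 each) that overlapped each other and no other time point of WT. In W89A SNZ2 averaged 20.55 ± 1.749 CPM at time point 3, which overlapped time points 1, 2 and 5, and 36.71 ± 5.933 CPM at time point 4, which overlapped none of them. The W89A libraries at that peak overlapped WT at time points 1 and 2 (means of 32.82 and 32.08 CPM) and lay above WT at time point 5 (26.63 CPM). In title order the first-cycle W89A values of SNZ2 at time points 4 and 5 (31.5 and 16.71 CPM) change places. Time points 4 and 5 of W89A then overlap. The difference in timing was not tested.

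In the order of all 10 groups, SNZ1 was highest in W89A at time point 3, then at time point 2 (521.4 CPM) and time point 1 (408.5 CPM), each clear of the next. The other 7 groups, from 322.2 to 217.0 CPM, overlapped their neighbours. For SNO1 W89A at time point 3 stood alone at the top, and W89A at time points 2, 1 and 4 followed (180.1, 133.0 and 117.3 CPM) with overlaps. For SNZ3 WT at time points 4 and 3 (60.0 and 58.62 CPM) led, W89A at time point 4 (36.29 CPM) came next and W89A at time point 5 (15.2 CPM) was lowest.

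Levels of different genes are compared per kb of coding length. The median over the 15 libraries of a strain was 479.7 CPM per kb in W89A and 288.5 in WT for SNZ1, and 191.7 in W89A and 81.45 in WT for SNO1. SNZ2 and SNZ3 had 22.43 and 21.32 CPM per kb in W89A and 38.79 and 34.16 in WT. SNO2 and SNO3 had 10.22 and 8.102 CPM per kb in W89A and 17.43 and 13.26 in WT. SNZ1 thus led in both strains by these counts, and each SNZ gene stood above its own SNO partner. If reads that match both copies were dropped, the copies' levels are too low and their place in this order is uncertain.

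The copies' share in the synthase transcripts was smaller in W89A. SNZ2 and SNZ3 made up 4.18% ± 0.254 of all SNZ counts per kb at time point 3 in W89A, against 30.4% ± 2.98 in WT (SD, n = 3 each). The share at time point 4 was 26.1%, 27.4% and 13.7% in W89A cycles 1 to 3, against 36.7%, 33.7% and 33.1% in WT, and the low W89A cycle 3 is the one with high SNZ1. SNO2 and SNO3 made up 4.16% ± 0.642 of all SNO counts per kb at time point 3 in W89A and 34.6% ± 3.62 in WT, and 10.6% ± 2.17 at time point 4 in W89A and 32.5% ± 4.97 in WT. Summed over the family, SNZ levels at time point 3 were 934 ± 34 CPM in W89A and 371 ± 39.5 CPM in WT, and at time point 5 they were 253 ± 49.3 CPM in W89A and 268 ± 28.1 CPM in WT. These shares were not tested, and they are too low in both strains if reads that match both copies were dropped.

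The glutaminase to synthase ratio of the first pair was also higher in W89A in the group means, and it was not tested. SNO1 per kb over SNZ1 per kb was 0.549, 0.552 and 0.502 at time point 4 in W89A, against 0.294, 0.259 and 0.271 in WT, so it stood apart there although SNZ1 itself overlapped. Over all time points the ratio ran between 0.343 and 0.552 in W89A (median 0.464) and between 0.247 and 0.371 in WT (median 0.309). The ratio at time point 5 was 0.379, 0.379 and 0.383 in W89A and 0.371, 0.318 and 0.296 in WT. At time point 1 the strains overlapped, with 0.507, 0.343 and 0.446 in W89A and 0.324, 0.345 and 0.313 in WT. For the copies, the ratio of SNO2 and SNO3 to SNZ2 and SNZ3 per kb was lowest at time point 4 in both strains, at 0.23 ± 0.0503 in W89A and 0.252 ± 0.0475 in WT.

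**Figure D3:**
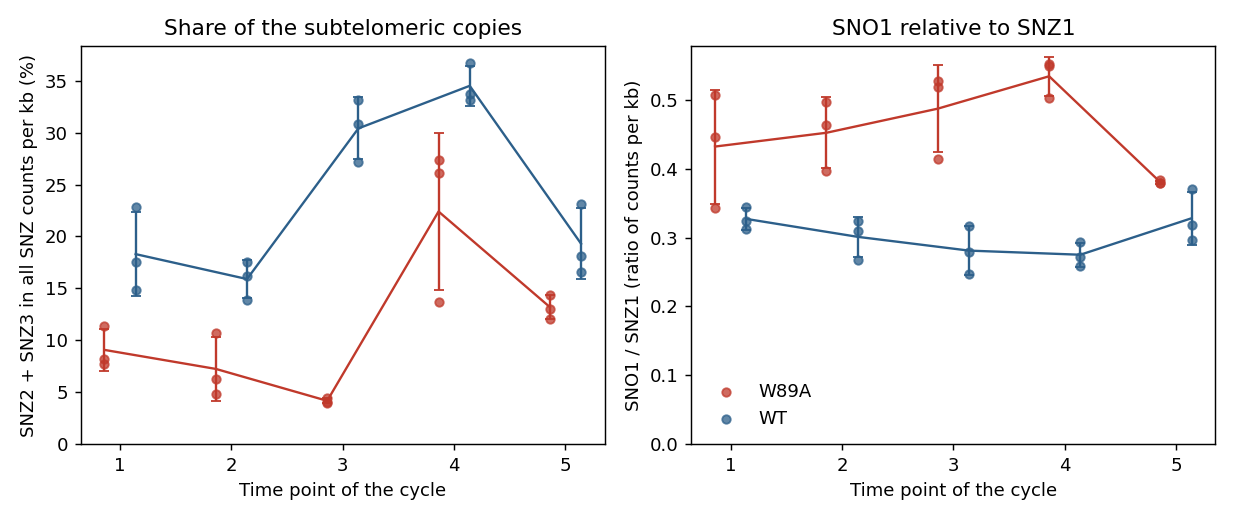
Left, share of SNZ2 and SNZ3 in all SNZ counts per kb, in percent; right, ratio of SNO1 to SNZ1 counts per kb; both by time point, W89A in red and WT in blue, with libraries as points, group means joined by lines and SD bars (n = 3). The W89A share is lowest at time point 3 (4.18%, against 30.4% in WT), and the W89A ratio is highest at time point 4 (mean 0.534, against 0.275 in WT).

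Across the 30 libraries the Pearson correlation of log2 CPM was 0.941 between SNZ1 and SNO1, against 0.715 between SNZ2 and SNO2 and 0.688 between SNZ3 and SNO3. Between the copies it was 0.971 for SNZ2 and SNZ3 and 0.709 for SNO2 and SNO3. Between SNZ1 and SNZ2 it was -0.387, and between SNO1 and SNZ3 it was -0.522. These values describe 30 libraries that share strain and time point, and the copies also share reads. Other genes were ranked by the same measure over 30 libraries, with the members left out. Among these genes with a symbol, the 5 most like SNZ1 were MCH4 (0.948), YMC1 (0.929), CTF13 (0.926), BIO3 (0.92) and TRP3 (0.916). For SNO1 they were CTF13 (0.936), DPS1 (0.93), MCH4 (0.919), HOM2 (0.912) and ARO8 (0.906). For the sum of SNZ2 and SNZ3 they were HBN1 (0.94), NAT2 (0.939), FIT2 (0.934), TAZ1 (0.929) and IMG1 (0.929). For the sum of SNO2 and SNO3 they were UGA4 (0.888), DAL80 (0.859), POF1 (0.853), DAL1 (0.847) and LCL2 (0.84).

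CTF13, which encodes a kinetochore subunit, appears in both of the first lists and lies next to SNO1. Its coding sequence ends 23 bases beyond the end of SNO1 on the opposite strand, and the counting is not stated to use strand, so reads that run past the end of SNO1 cannot be told from CTF13 reads. CTF13 had 64.73, 61.38 and 44.59 CPM in W89A at time point 3, against 11.72, 13.31 and 14.75 CPM in WT, a log2 fold change of 2.10 ± 0.28 (adjusted p = 1.597e-06, edgeR). UTP15, a ribosome biogenesis gene next to CTF13, was higher at time point 3 too (1.41 ± 0.25, adjusted p = 4.488e-05). On the SNZ1 side MTG1 (-0.43 ± 0.08, adjusted p = 0.0001326) and ATP25 (-0.67 ± 0.11, adjusted p = 1.805e-05), both for mitochondrial proteins, were lower by the same edgeR test.

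Beside the copies, the genes of thiamine pyrimidine synthesis were lower in W89A. THI12, 668 bases beyond SNZ2, had 3.025, 2.885 and 4.954 CPM in W89A at time point 3, against 18.84, 16.38 and 25.96 CPM in WT, a log2 fold change of -2.49 ± 0.49 (adjusted p = 0.0001694, edgeR). THI5, 669 bases beyond SNZ3, had 2.055, 1.496 and 3.847 CPM in W89A, against 9.85, 5.69 and 10.38 CPM in WT, a log2 fold change of -1.80 ± 0.52 (adjusted p = 0.005464, edgeR). Both passed as lower at time point 4 as well (-1.90 and -1.76, adjusted p = 0.005702 and 0.01435), each call lost in 1 of 14 alternative fits. THI5, THI11, THI12 and THI13 are near-identical and share reads, so a value of any of them is uncertain.

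The other neighbours moved less. Beyond SNO2 and SNO3 lie the near-identical YNL335W and YFL061W, cyanamide hydratase genes 78 bases away. They were not called at time point 3 (-0.59 ± 0.37 and -0.38 ± 0.28, adjusted p = 0.1976 and 0.2732, edgeR). Both passed at time point 4 (-1.16 and -0.90, adjusted p = 0.02403 and 0.0219), and these calls were lost in 4 of 14 alternative fits for YNL335W and 5 of 14 for YFL061W, title order among them. COS1 was lower at time point 3 (-0.35 ± 0.10, adjusted p = 0.005794), while COS4 was not called (-0.10 ± 0.45, adjusted p = 0.8715). The aryl-alcohol dehydrogenase genes AAD14 (-0.31 ± 0.15, adjusted p = 0.08255) and AAD6 (-0.24 ± 0.11, adjusted p = 0.06374) missed the threshold at time point 3.

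**Figure D4:**
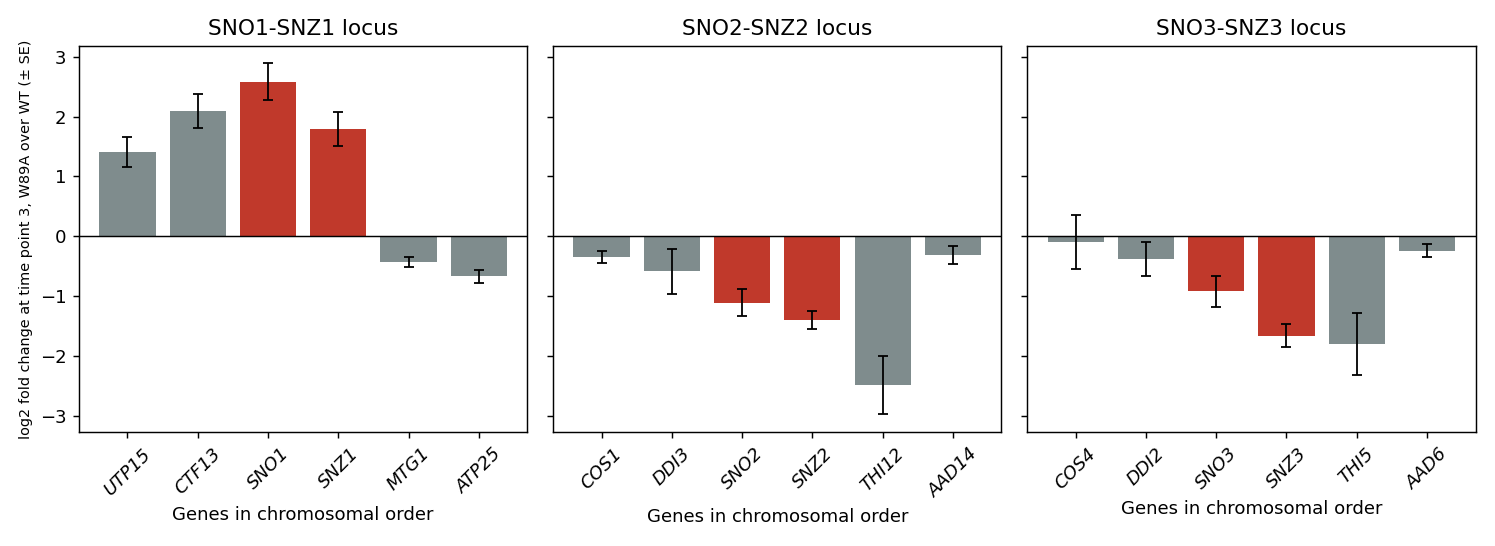
Log2 fold change of W89A over WT at time point 3 with its SE, for each SNO-SNZ pair (red) and the 2 annotated genes on either side (grey) in chromosomal order. At the first locus UTP15 (1.41), CTF13 (2.10), SNO1 (2.58) and SNZ1 (1.79) are higher, and MTG1 (-0.43) and ATP25 (-0.67) lower. Whether neighbouring genes moved together was not tested. At the others the lowest bars are THI12 (-2.49) and THI5 (-1.80). DDI3 and DDI2 are the symbols the deposited tables give to YNL335W and YFL061W.

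The rest of the vitamin B6 pathway was followed in a list of 6 genes, all of them tested. At time point 3, 5 passed as higher (all genes 28.2%) and 1 as lower (all genes 22.9%) in W89A. The median log2 fold change was 0.571 (all genes 0.077). BUD16, a putative pyridoxal kinase gene, was higher by 1.26 ± 0.15 (adjusted p = 2.049e-07), and PDX3, the oxidase that makes pyridoxal phosphate from its reduced forms, by 0.59 ± 0.13 (adjusted p = 0.0004961). TPN1, the pyridoxine importer, was higher by 0.62 ± 0.18 (adjusted p = 0.004698), BUD17, another putative kinase, by 0.56 ± 0.20 (adjusted p = 0.02264) and YBL036C, a pyridoxal phosphate binding protein, by 0.46 ± 0.11 (adjusted p = 0.001337). YPR127W, a putative pyridoxal reductase, was lower, with a log2 fold change of -0.94 ± 0.21 (adjusted p = 0.0006518), all by edgeR. The BUD17 call was lost in 4 of 14 alternative fits and the others in 0. Mean BUD16 levels fell from 71.85 to 28.75 CPM between time points 2 and 3 in WT. In W89A they fell from 68.7 to 16.87 CPM between time points 3 and 4. A shift in timing was not tested.

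Outside time point 3 few of the 6 were called. BUD17 was lower at time point 1 (-0.74 ± 0.19, adjusted p = 0.02163, edgeR), a call lost in 5 of 14 alternative fits. YPR127W was lower at time point 4 (-0.70 ± 0.21, adjusted p = 0.0205, edgeR), a call lost without WT cycle 2 or 3. All 6 changed over the cycle in both strains by the edgeR test of 4 contrasts, which 75.5% of all genes passed in W89A and 81.5% in WT. BUD16 spanned 2.13 on the log2 scale in W89A and 1.82 in WT, and BUD17 spanned 2.30 in W89A and 2.27 in WT.

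The thiamine list holds 17 tested genes, among them THI5, THI11, THI12 and THI13. These share reads, so their calls are not independent of each other. At time point 3, 4 passed as higher (all genes 28.2%) and 7 as lower (all genes 22.9%) in W89A, with a median log2 fold change of -0.139 (all genes 0.077). THI13 (-2.54 ± 0.40, adjusted p = 9.696e-06) and THI12 had the smallest p among the lower ones, and PDC2 (0.54 ± 0.12, adjusted p = 0.0007307) and THI3 (0.50 ± 0.13, adjusted p = 0.001611), which encode regulators of thiamine genes, among the higher ones, by edgeR. Of the 17 genes, 1 passed as higher (all genes 10.9%) and 10 as lower (all genes 10.5%) at time point 4, with a median of -0.55 (all genes 0.01). Between 4 and 10 passed as lower with single cycles left out. On the average over time points 1, 3, 4 and 5, 1 was higher (all genes 25.9%) and 9 were lower (all genes 21.3%). The median of this average was -0.381 (all genes 0.026). The 1 higher gene was PDC2 (0.44 ± 0.06, adjusted p = 3.853e-06).

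Among 30 amino acid biosynthesis genes known as Gcn4 targets, 30 passed as higher in W89A at time point 3 (all genes 28.2%), with a median log2 fold change of 1.744 (all genes 0.077). ARO3 (2.53 ± 0.22, adjusted p = 5.314e-09), a first enzyme of aromatic amino acid synthesis, and TRP4 (2.25 ± 0.19, adjusted p = 4.208e-09), of tryptophan synthesis, had the smallest p by edgeR. SNZ1 (1.79) lay near this median and SNO1 (2.58) above it, and a role of Gcn4 was not tested. At time point 1, 7 passed as higher (all genes 4.41%) and 1 as lower (all genes 3.6%), with a median of 0.448. The lower gene was LYS9 (-1.08 ± 0.17, adjusted p = 0.001103, edgeR). Leaving out single cycles gave between 0 and 18 higher. For time point 4, 9 passed as higher (all genes 10.9%), with a median of 0.366. But without W89A cycle 3 the counts were 6 higher and 7 lower, and with the 6 libraries of that time point alone 0 passed. At time point 5, 3 passed as lower (all genes 4.44%), with a median of -0.409. Leaving out single cycles gave between 0 and 17 lower, and the 6 libraries of that time point alone gave 1 higher and 18 lower.

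Of 34 tested enzymes that use pyridoxal phosphate, 16 passed as higher (all genes 28.2%) and 8 as lower (all genes 22.9%) in W89A at time point 3, with a median log2 fold change of 0.298 (all genes 0.077). The 8 lower ones are a share near that of all genes. The threonine deaminase gene ILV1 (2.0 ± 0.18, adjusted p = 5.314e-09) and the tryptophan synthase gene TRP5 (1.97 ± 0.19, adjusted p = 1.726e-08) had the smallest p among the higher ones. The branched-chain aminotransferase gene BAT2 (-1.15 ± 0.13, adjusted p = 1.229e-07) and BNA3 (-0.89 ± 0.14, adjusted p = 1.319e-05), a kynurenine aminotransferase gene, had it among the lower ones, by edgeR. Both lists hold ILV1 and TRP5, and 5 genes in all. For time point 4, 5 enzymes passed as higher (all genes 10.9%) and 1 as lower (all genes 10.5%). Without W89A cycle 3 these counts became 7 and 7, and with the 6 libraries alone 1 and 1.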

How the data were processed

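Read counts per gene, as whole numbers, were deposited by the authors in 1 table; aligner, counter, annotation, strand setting and read length are not given in the sources used here. As build, the submitters' processing notes name mm9, a mouse assembly. Of 5921 genes whose coordinates could be compared, 5912 had the same start and end as in yeast R64, whose coordinates are used. The authors' deposited comparison tables, 1 per time point, hold the authors' log2 fold changes and their p-values, not used as results here. They gave symbols and the time points of the first-cycle W89A libraries, and their signal and FPKM values per library were not used.

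All 30 libraries entered 1 fit of 10 group means in edgeR 4.0.16 (R 4.3.3; TMM, filterByExpr, robust quasi-likelihood). It kept 6256 genes and removed 871, with a common biological coefficient of variation of 0.1639. Tests were 2-sided; p-values were adjusted over all genes by Benjamini-Hochberg, with a threshold of 0.05. CPM are relative to the normalized library size. Log2 CPM of single genes used a prior count of 2, and log2 CPM of the sums a small fixed offset added to CPM. Fold changes are those of the fit. Means carry SD and fold changes SE. Replicates differed by at least 17.07 times the sampling noise (chi-square per degree of freedom), so each counted as 1 sample.

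The members, the gene lists and the rules were chosen with earlier results of these data known. The text names the 6 members, the other vitamin B6 genes and up to 2 list members per direction with the smallest p. It also names the 2 annotated genes on each side of a pair. For SNZ1, SNO1 and each sum it names the 5 most similar genes, with the members left out. Alternatives were title order of the first-cycle libraries or their omission, RLE scaling, no filter, DESeq2 1.42.0, a cycle block, summed copies, only the groups compared, and leaving out each cycle. Consecutive samples of 1 cycle share a culture, so by design the numbers pair time points within a strain but not the strains. Same-numbered W89A and WT libraries correlated over 0.1 in 3 of 15 pairs (median 0.062). Within a cycle 9 of 30 W89A pairs (median 0.027) and 7 of 30 WT pairs (median 0.054) did, so these correlations do not show that difference. Sequences are from RefSeq R64; promoter and protein tables were not used.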

Additional observations from a re-analysis of the deposited data

Results flagged for a closer look

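For 4 genes the strain difference itself changed between time points 1, 3, 4 and 5, by the edgeR test of 3 contrasts in 3 libraries per group. The adjusted p was 0.00353 for SNZ1 and 0.000721 for SNO1, whose log2 fold changes of W89A over WT at these time points spanned 1.78 and 2.34. It was 0.0084 for SNZ2 and 0.00472 for SNZ3, which spanned 0.82 and 1.12. At time point 3 SNZ1 and SNO1 were higher in 3 of 3 W89A libraries than in any WT library of that time point, and SNZ2 and SNZ3 were lower in 3 of 3. Of all genes, 32.5% were higher and 27.3% lower without overlap at that time point. The test of 3 contrasts was passed by 41.6% of all genes tested.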

How the results depend on the processing

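At time point 3 and on the average over time points 1, 3, 4 and 5, all 6 members kept their direction and call in every fit that kept them separate, and both sums did where the copies were summed. The number of members called moved elsewhere. At time point 1 it was 1, against 0 in title order (178 of all genes called, against 501), 2 with the libraries W89A19 and W89A20 left out, 3 in DESeq2 (776 genes), 3 with the replicate block of cycle number, 2 with only the groups compared (837 genes) and 0 to 5 with single cycles left out (39 to 882 genes). At time point 4 it was 4, against 2 with only the groups compared (487 genes, against 1334) and 4 to 5 with cycles left out (521 to 1753 genes). At time point 5 it was 2, against 0 in title order (362 genes, against 595), 0 with both libraries left out (116 genes), 1 with the copies summed and 0 to 2 with cycles left out (47 to 1029 genes); only the groups compared gave 2 (1086 genes). Over the W89A cycle it was 4, against 2 in title order and 4 to 5 with cycles left out. Over the WT cycle it was 4, against 2 with the copies summed, 6 with only the WT libraries, 6 with the replicate block within WT and 2 to 6 with cycles left out. For the change of the strain difference it was 4, and 3 to 4 with cycles left out. The sums are 2 features in place of 4 and so lower these counts by construction.

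Signs reversed for SNZ1 at time point 4 (-0.275 without W89A cycle 3; -0.275 to 0.66 over all cycles left out), SNZ1 at time point 5 (-0.166 without W89A cycle 3 and -0.098 without WT cycle 1; -0.166 to 0.116) and SNO3 at time point 5 (0.003 without WT cycle 1; -0.461 to 0.003), none of them called in any of these fits; the cause was not tested. Of the tested values of single genes under alternatives, time point 2 left out, 4 reversed, 24 lost their call, 20 gained one and 604 did neither. The replicate block of cycle number added calls for SNO1 (adjusted p = 0.043, edgeR) and SNZ3 (adjusted p = 0.0361) at time point 1 and SNO3 over the W89A cycle (adjusted p = 0.0385), and, apart from the block within WT, changed no other member's call. RLE scaling moved the median of all genes by less than 0.1. SNO3 and SNO2 have the fewest counts, so their differences are the least precise.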
